A study of Homo sapiens with 33 samples.

Results

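Tropomyosins and 4 further genes of the actin cytoskeleton were described in human cell lines whose hnRNPA1 is either wild type (WT) or carries the substitution D262V. The 8 genes are TPM1, TPM2, TPM3, TPM4, EVL, ADD3, RAI14 and ACTA2. They were chosen by junction usage in these same tables, where several of them had differed between WT and D262V cells, so every D262V against WT value of these genes is a description without a test. They are 8 of 9839 genes with a listed splice junction in the authors' deposited splicing tables, and they hold 136 of 93983 distinct listed junctions.

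RNA-seq covered 7 groups of 3 libraries. SH-SY5Y, a neuroblastoma line, was WT or homozygous D262V in the undifferentiated state, and WT, homozygous D262V or heterozygous D262V after differentiation with 10 µM retinoic acid, with 50 ng/mL BDNF in the final medium, and harvest on day 18. Flp-In T-REx 293, a kidney-derived line, carried a transgene for WT or D262V hnRNPA1 that 1 µg/mL tetracycline switched on for 72 hr before harvest, and these cells keep their own hnRNPA1 gene. For irCLIP, a crosslinking assay that locates the RNA sites bound by a protein, there were 3 samples for each of WT and D262V in both lines. The labels do not say how the SH-SY5Y genotypes were made, whether each genotype is 1 clone, or whether replicates were separate cultures, so p-values reflect only how these samples vary among themselves, and that variation may be technical.

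Tropomyosins are coiled-coil dimers that lie along the actin filament and set which other proteins reach it. Each tropomyosin gene gives many isoforms through alternative first exons, an alternative internal exon and alternative last exons, and non-muscle cells make long forms from an upstream start and short forms from an internal start. EVL is an Ena/VASP protein that promotes growth of actin filaments, ADD3 (gamma-adducin) caps filament ends and ties them to spectrin, RAI14 is an ankyrin-repeat protein that binds actin bundles, and ACTA2 is the actin of smooth muscle. hnRNPA1 is an RNA-binding protein that can repress the use of exons and splice sites.

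Several of the choices described below lie between start sites. RefSeq (GRCh38.p14) upstream sequences of 250 bases were matched for 19 start sites, at least 1 for each of the 8 genes. The 4 that follow belong to start sites whose junctions are compared here and are printed to show how these starts differ in sequence. Each runs 5′ to 3′ on the gene's strand and ends at the base before the transcript start. Capitals mark a CArG box, the site of serum response factor, with 1 base of its A/T core allowed to differ, or a TATA box, here TATA, any base and AA.
ACTA2, start 88952773, chr10:88952774-88953023, minus strand: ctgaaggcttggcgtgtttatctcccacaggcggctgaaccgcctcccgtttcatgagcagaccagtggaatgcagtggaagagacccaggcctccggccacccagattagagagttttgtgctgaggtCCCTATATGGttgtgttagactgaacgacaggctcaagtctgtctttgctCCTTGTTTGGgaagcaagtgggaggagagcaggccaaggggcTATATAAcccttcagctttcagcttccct
ACTA2, start 88991337, chr10:88991338-88991587, minus strand: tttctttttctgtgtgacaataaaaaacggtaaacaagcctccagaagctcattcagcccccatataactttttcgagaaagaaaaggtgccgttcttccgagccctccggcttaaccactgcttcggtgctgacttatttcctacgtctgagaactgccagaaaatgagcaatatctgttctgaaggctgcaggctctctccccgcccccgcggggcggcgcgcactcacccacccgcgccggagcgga
TPM1, start 63048489, chr15:63048239-63048488, plus strand: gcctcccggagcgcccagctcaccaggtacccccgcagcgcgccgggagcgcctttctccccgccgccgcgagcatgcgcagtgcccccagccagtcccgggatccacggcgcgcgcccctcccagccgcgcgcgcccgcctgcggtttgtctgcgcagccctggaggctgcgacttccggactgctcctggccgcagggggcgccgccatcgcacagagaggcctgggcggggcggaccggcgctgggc
EVL, start 99971422, chr14:99971172-99971421, plus strand: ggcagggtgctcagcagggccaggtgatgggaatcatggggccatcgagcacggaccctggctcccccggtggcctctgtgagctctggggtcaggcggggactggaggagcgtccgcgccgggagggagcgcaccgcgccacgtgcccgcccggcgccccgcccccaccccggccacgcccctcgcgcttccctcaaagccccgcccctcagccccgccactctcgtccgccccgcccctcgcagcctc

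The ACTA2 start at 88952773 had 2 such CArG boxes, which begin at positions -121 and -71 from the start, and a TATA box that begins at -29. Neither motif was found in the other 3 sequences on either strand. Among 35116 RefSeq promoters of this length, 7.04% held a CArG box under this rule and 8.42% held a TATA box. The GC box GGGCGG, which 42.6% of promoters held, was present, counting both strands, 2 times before the TPM1 start, 5 times before the EVL start and 2 times before the ACTA2 start at 88991337. The TPM1 sequence was 78.4% G or C and the EVL sequence 76.8%, against a median of 58.0% over all promoters. The upstream start of TPM1 and the second EVL start described below were not matched. These matches are letters in a window, and binding was not measured.

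Depth and cell-type markers set the limits of these values. Each undifferentiated library had 4.81 to 9.01 M listed junction reads (1 M is 1000000 reads). In differentiated cells there were 25.9 to 41.9 M per library in the homozygous table and 27.1 to 50.8 M in the heterozygous one, and Flp-In libraries held 2.37 to 3.54 M. Deposited gene counts were lower than the reads over a single junction of the same gene for 7 of 8 of these genes in the homozygous table and for 82.0% of all genes there, so gene levels are given mainly from junction reads. HNRNPA1 differed by a log2 fold of -0.28 to 0.33 between D262V and WT by gene counts and passed no test there by edgeR (lowest adjusted p = 0.237), while by junction reads it was lower in undifferentiated homozygous cells (log2 fold -0.37, adjusted p = 0.0259). The level of HNRNPA1 does not check a point substitution. Over the 13 of 15 mesenchymal markers found in the gene count tables, the summed level by gene counts was 41.4 to 58.0 counts per 1000000 counted reads (CPM) in differentiated WT cells, 53.8 to 55.1 in homozygous cells and 78.7 to 82.5 in heterozygous cells. Undifferentiated libraries ranged from 38.8 to 50.4 (WT) and from 128 to 174 (homozygous). Junction reads list few of these markers and gave another order. COL3A1 and COL5A1 summed to 42.4 to 72.6 CPM of junction reads in WT and 148 to 165 in homozygous cells. In the heterozygous table FN1, COL5A1 and S100A6 summed to 280 to 338 in WT and only 60.2 to 75.7 in heterozygous cells. The sum thus went opposite to that by gene counts, but gene by gene the 2 measures were closer. By edgeR on junction reads 2 of these 3 genes rose and 1 fell (median log2 fold 2.29). By gene counts 6 of 10 tested mesenchymal markers rose and 0 fell (median 1.47), where 7.97% of all genes rose and 8.47% fell. In undifferentiated cells S100A6 alone was listed, at 213 to 311 in WT and 259 to 322 in homozygous libraries, which overlap. A smooth muscle list of 10 markers, which includes ACTA2, summed by gene counts to 77.7 to 85.2 CPM in differentiated WT cells. Homozygous cells had 83.4 to 105 and heterozygous cells 178 to 204. By edgeR 3 of 5 tested genes rose and 0 fell in heterozygous cells, beside the same 7.97% and 8.47% of all genes. MYH11 and ACTG2 were at 0 in every differentiated library, which in these low counts does not show absence. Undifferentiated sums were 51.7 to 75.9 in WT and 97.3 to 116 in homozygous libraries. By junction reads ACTA2, CALD1 and SMTN summed to 71.1 to 76.8 in differentiated WT and 103 to 111 in homozygous cells. CALD1, listed alone in the heterozygous table, had 12.4 to 13.6 in WT and 38.6 to 53.2 in heterozygous cells. In undifferentiated cells its junction reads overlapped. The neuronal list summed by gene counts to 1415 to 1444 CPM in differentiated WT cells. Homozygous cells had 1599 to 2116 and heterozygous cells 1196 to 1392. By junction reads the same 12 neuronal genes were at 9423 to 10151 CPM in WT and 12874 to 13186 in homozygous cells, while WT (12336 to 13248) and heterozygous libraries (13012 to 13255) overlapped. A Schwann or glial list of 8 markers summed by gene counts to 14.6 to 16.1 CPM in differentiated WT cells. Homozygous cells had 9.22 to 11.5 and heterozygous cells 23.7 to 32.5, where 1 of 4 tested genes rose and 0 fell by edgeR. A noradrenergic list of 9 summed to 554 to 568 in WT, 674 to 775 in homozygous and 458 to 552 in heterozygous cells. The part of these marker levels in the results below was not tested.

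Junction usage is the share, in percent, of the reads of 1 splice choice that cross a given junction. A junction was counted as changed under 4 conditions: an adjusted p below 0.05 in the authors' deposited table, a shift in mean usage of 10 points or more, 20 reads or more over the choice in each library, and no overlap between the 2 groups of libraries. In differentiated homozygous cells 10 of the genes' 103 junctions with enough reads were counted as changed, where the background over all genes was 1.31%. In differentiated heterozygous cells the count was 20 of 95 (background 4.28%), in Flp-In cells 5 of 16 (background 1.73%) and in undifferentiated homozygous cells 0 of 17 (background 3.19%). The list was made from these comparisons, so nothing is read from these shares. The homozygous and heterozygous comparisons share their 3 WT libraries. In the homozygous comparison the 10 junctions were 4 of TPM1, 2 of EVL, 3 of RAI14 and 1 of ACTA2, and TPM2, TPM3, TPM4 and ADD3 had none. In the heterozygous comparison they were 8 of TPM1, 3 of TPM2, 1 of TPM3, 2 of EVL, 3 of ADD3 and 3 of RAI14, while TPM4 had none and ACTA2 was not listed. The Flp-In junctions were 2 of ADD3 and 3 of RAI14.

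TPM1 (chromosome 15, plus strand) differed at its start, at its alternative internal exon and at its end. The start choice was read at the third common exon, which receives reads either from the 126-nt exon at chr15:63044026-63044151 that follows the upstream start, or from the internal first exon. The upstream junction chr15:63044152-63056983 had a usage of 6.91%, 7.82% and 5.86% in the differentiated WT libraries. It had 48.3%, 46.0% and 47.9% in homozygous libraries. It had 49.4%, 43.2% and 49.3% in heterozygous libraries. All 6 D262V libraries lay far above all 3 WT libraries, and the homozygous and heterozygous ranges overlapped. The internal junction chr15:63048707-63056983 carried nearly all other reads, at 89.7% to 93.1% in WT, 45.2% to 49.7% in homozygous and 44.5% to 52.8% in heterozygous libraries.

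**Figure D1:**
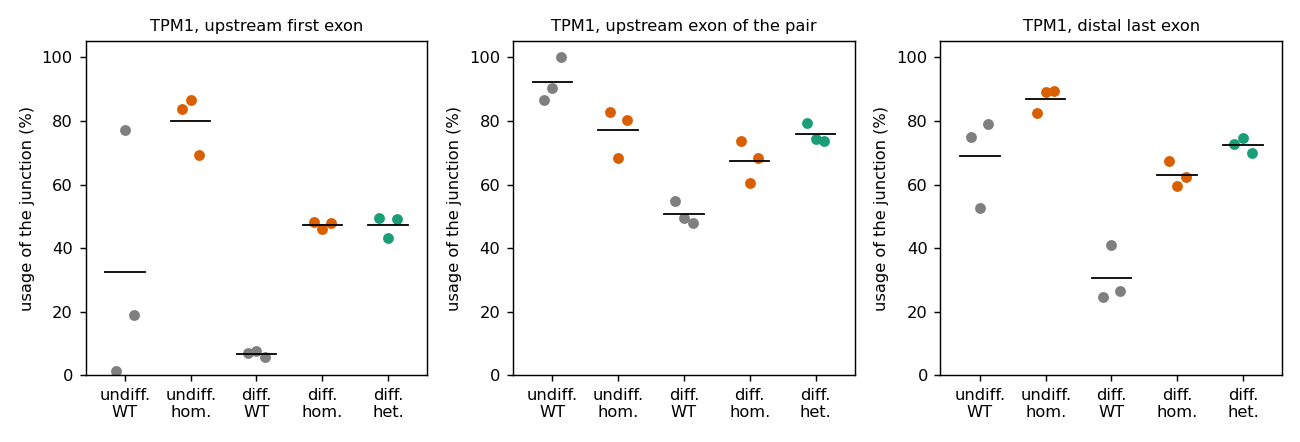
Usage of 3 TPM1 junctions in percent (y axis) by group of SH-SY5Y cells (x axis; undiff. is undifferentiated, diff. differentiated, hom. homozygous and het. heterozygous D262V); points are libraries, bars are means of 3, and the differentiated WT points are those of the homozygous comparison. In differentiated cells all D262V libraries lie above the WT libraries in each panel, while undifferentiated WT libraries are spread from 1.47% to 77.1% in the first panel.

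Read numbers show which arm of the start choice differed. The upstream junction had 26, 48 and 26 reads in the WT libraries, 421, 367 and 475 in homozygous libraries and 456, 343 and 338 in heterozygous libraries. Scaled to reads per 1000000 listed junction reads of the library (RPM), this was 0.998 ± 0.129 RPM in WT and 14.0 ± 0.178 in homozygous cells (SD, n = 3 each), a 14.0-fold higher value. The internal junction had 13.4 ± 1.43 RPM in WT and 14.1 ± 1.05 in homozygous cells (SD, n = 3 each), and these ranges overlapped. In the heterozygous table the upstream junction went from 0.823 ± 0.107 to 13.0 ± 1.95 (15.7-fold) and the internal one from 11.1 ± 1.14 to 13.0 ± 1.28 RPM (SD, n = 3 each). The higher share of the upstream start thus came with more upstream reads and not with fewer reads from the internal start. A second exon of 126 nt, chr15:63043705-63043830, known as the form used in smooth muscle, also joins the third common exon: its junction had 0, 15 and 6 reads in WT, 28, 34 and 69 in homozygous and 57, 31 and 37 in heterozygous libraries.

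**Figure D2:**
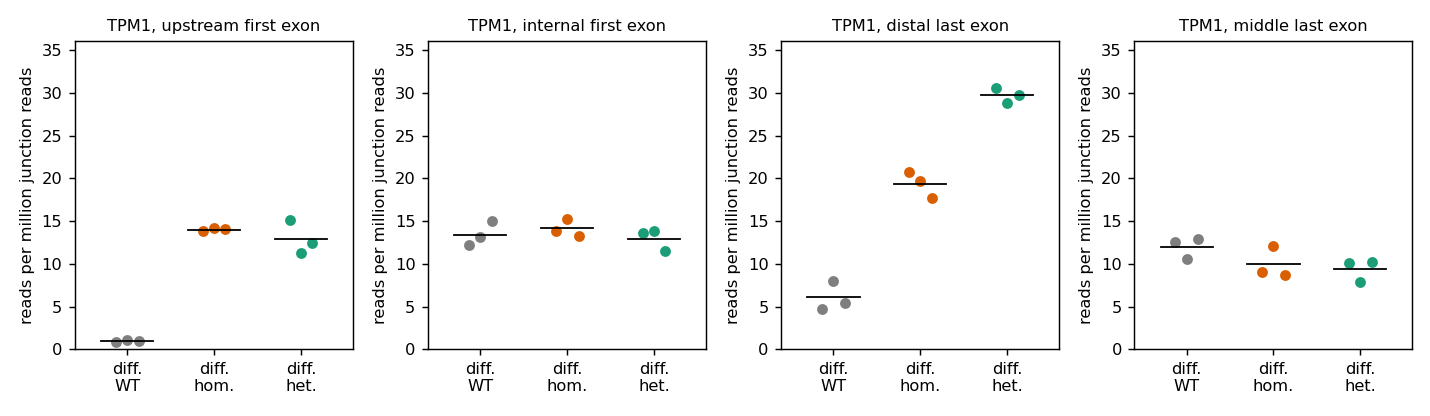
Reads per 1000000 listed junction reads (RPM, y axis) over 4 TPM1 junctions in differentiated WT, homozygous (hom.) and heterozygous (het.) D262V cells (x axis). Points are libraries and bars are means of 3. WT points are scaled as in the homozygous table and heterozygous points as in the heterozygous table, so small differences between these 2 groups cannot be read here. The upstream first exon and distal last exon are higher in all D262V libraries, with homozygous means of 14.0 and 19.4 RPM. The internal first exon and middle last exon overlap between WT and homozygous libraries.

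At the sixth exon TPM1 chooses between an upstream exon at chr15:63061197-63061272 and a downstream exon at chr15:63061712-63061787, both of 76 nt. Usage of the junction into the upstream exon was 66.5%, 65.9% and 61.9% in WT and 83.7%, 85.8% and 86.0% in heterozygous libraries. In homozygous libraries it was 76.6%, 69.4% and 76.4%, a mean difference of 9.39 points, which lies just outside the 10-point limit although the groups do not overlap. Read from the exon after the pair, the share from the upstream exon was 54.9%, 49.6% and 48.4% in WT and 79.5%, 74.4% and 73.7% in heterozygous libraries. The same view gave 73.8%, 60.5% and 68.2% in homozygous libraries, all above WT, but the adjusted p of the authors' deposited table was not under 0.05. The 2 exons were rarely joined to each other, with 10, 21 and 9 reads in WT and 30, 51 and 19 in heterozygous libraries.

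At the 3′ end the junction to the most distal last exon, chr15:63062645-63071088, had a usage of 24.6%, 41.0% and 26.6% in WT and 67.5%, 59.4% and 62.4% in homozygous libraries. Heterozygous libraries had 72.8%, 74.8% and 69.8%. The junction to the middle last exon, chr15:63062645-63069868, went the other way, from 64.8%, 53.7% and 63.1% in WT to 29.4%, 36.5% and 30.7% in homozygous libraries and 24.1%, 20.4% and 24.0% in heterozygous libraries. The groups were apart at both ends. As at the start, the difference was in 1 arm: distal reads were 6.08 ± 1.73 RPM in WT and 19.4 ± 1.53 in homozygous cells (3.18-fold), and 4.95 ± 1.33 and 29.7 ± 0.853 in the heterozygous table (SD, n = 3 each). The middle junction had 12.0 ± 1.28 and 9.94 ± 1.86 RPM in WT and homozygous cells (SD, n = 3 each), with overlapping libraries.

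In undifferentiated cells no TPM1 junction was counted as changed. The upstream start had 1, 54 and 4 reads in the 3 WT libraries, or 1.47%, 77.1% and 19.0% of the choice, and 150, 97 and 74 reads in homozygous libraries, or 83.8%, 86.6% and 69.2%. The second WT library stood apart from the other two and overlapped the homozygous range, so the mean difference of 47.3 points rests on unequal WT libraries. At the pair, the share from the upstream exon was 86.5%, 90.2% and 100% in WT and 82.9%, 68.5% and 80.3% in homozygous libraries, the opposite order to differentiated cells. The distal last exon had 74.8%, 52.7% and 79.1% in WT and 82.5%, 89.0% and 89.3% in homozygous libraries, in a choice among 4 junctions. Set side by side, the distal last exon took the larger part in undifferentiated WT cells and the smaller part in differentiated WT cells; these states come from separate runs of the splicing program, and state and run cannot be told apart.

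TPM2 (chromosome 9, minus strand) was counted as changed at its internal exons in heterozygous cells, where 3 of its 9 readable junctions passed the rule, and at 0 of 9 in homozygous cells. Its exons at chr9:35685063-35685138 (upstream) and chr9:35684731-35684806 (downstream) have 76 nt each. The junction into the upstream exon had a usage of 23.0%, 27.6% and 25.4% in WT and 48.2%, 47.1% and 44.7% in heterozygous libraries. Homozygous libraries had 19.2%, 23.1% and 26.2%, within the WT range except for the lowest. Reads from the upstream exon went almost entirely into the downstream exon, with 683, 1336 and 579 reads in WT and 875, 985 and 861 in heterozygous libraries, while 0, 8 and 9 reads in WT and 14, 31 and 51 in heterozygous libraries went on to the next exon. The 2 TPM2 exons were thus mostly joined to each other, and the share into the upstream exon is not a share of exclusive isoforms. This joining junction was at 21.1 ± 4.68 RPM in WT and 31.1 ± 1.83 in heterozygous cells, and 25.5 ± 5.62 in WT and 10.5 ± 0.393 in homozygous cells (SD, n = 3 each). It thus lay above WT in heterozygous and below WT in homozygous cells.

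TPM3 (chromosome 1, minus strand) was listed at its internal pair in both differentiated comparisons. Its exons at chr1:154172028-154172103 (upstream) and chr1:154171412-154171487 (downstream) also have 76 nt. The junction into the upstream exon had 81.0%, 81.5% and 79.8% in WT and 89.9%, 89.8% and 89.9% in heterozygous libraries, a difference of 9.09 points that lies just outside the limit. The junction into the downstream exon had 5381, 7392 and 5504 reads in WT and 1969, 1979 and 1989 in heterozygous libraries. This was 155 ± 9.38 and 67.9 ± 4.78 RPM (SD, n = 3 each), a 2.28-fold lower value. Downstream usage in homozygous libraries was 19.9%, 20.3% and 20.9% against 18.3%, 17.9% and 19.6% in WT, a mean difference of 1.74 points with no overlap. The 1 TPM3 junction counted as changed was the intron between the pair's exons, whose spliced share was 74.5%, 72.2% and 65.7% in WT and 49.4%, 53.6% and 52.9% in heterozygous libraries. It was counted at 1 border of that intron only. At the other border the adjusted p in the authors' deposited table was 0.118. In Flp-In cells the largest TPM3 difference was 1.22 points.

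**Figure D3:**
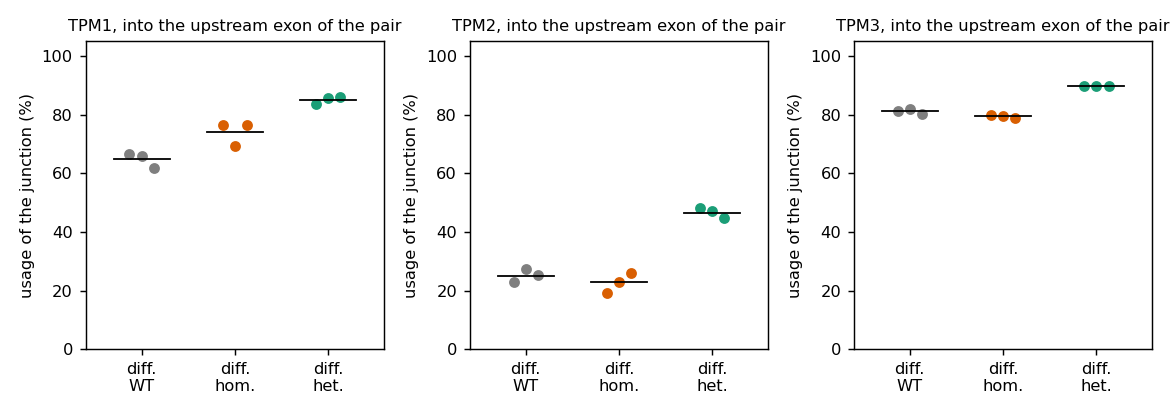
Usage in percent (y axis) of the junction into the upstream exon of the 76-nt pair of TPM1, TPM2 and TPM3 in differentiated WT, homozygous (hom.) and heterozygous (het.) D262V cells (x axis); points are libraries, bars are means of 3, and WT points are those of the homozygous comparison. Heterozygous libraries lie above WT in all 3 genes (TPM2 44.7% to 48.2%), while homozygous libraries lie above WT in TPM1 alone. The TPM2 exons are mostly joined to each other in WT and heterozygous cells, so TPM2 values are not shares of exclusive isoforms.

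In heterozygous cells TPM1, TPM2 and TPM3 thus had higher usage of the junction into the upstream exon of this pair. Each had all 3 libraries above all 3 WT libraries. For TPM2 this usage does not measure a switch between the exons, because reads from its upstream exon went almost entirely into its downstream exon. TPM4, whose listed junctions lie at its start and near its end, had no junction counted as changed. Its main start junction chr19:16076697-16081911 had a usage of 85.8%, 90.1% and 87.0% in WT and 92.1%, 90.0% and 90.5% in homozygous libraries, which overlap. In heterozygous cells its junction chr19:16093753-16095262 had 7.58%, 6.15% and 6.44% in WT and 3.17%, 5.45% and 4.08% in D262V libraries, a small difference with the groups apart. The largest TPM4 difference, 21.6 points in homozygous cells, was on a choice with 18 to 63 reads per library and was not counted.

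EVL (chromosome 14, plus strand) differed at its start. The junction chr14:100019687-100084685, from the second of 2 first exons, had a usage of 14.5%, 17.3% and 9.38% in differentiated WT libraries. Homozygous libraries had 67.6%, 66.9% and 50.6%, and heterozygous libraries 38.6%, 42.1% and 28.1%. Each D262V group lay above WT, and the lowest homozygous library lay above the highest heterozygous one. Reads over this junction were 11, 23 and 6 in WT, 146, 91 and 132 in homozygous and 59, 59 and 41 in heterozygous libraries. The junction was at 0.383 ± 0.165 RPM in WT and 4.07 ± 0.656 in homozygous cells (10.6-fold), and 0.316 ± 0.137 and 1.80 ± 0.250 in the heterozygous table (5.70-fold; SD, n = 3 each). The first start, whose promoter is printed above, had 2.33 ± 0.265 and 2.62 ± 1.07 RPM in WT and homozygous cells (SD, n = 3 each), overlapping, and was 1.67-fold higher in heterozygous cells. In undifferentiated cells the second start had 0 reads in all 3 WT libraries, beside 135, 164 and 127 reads from the first start, and 5, 2 and 7 reads in homozygous libraries.

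ACTA2 (chromosome 10, minus strand) was listed in differentiated homozygous and in Flp-In cells. Its common acceptor receives the nearest first exon, which begins at 88952773, through junction chr10:88948953-88952729, or 1 of 2 donor sites after the distant start at 88991337. The near start had a usage of 14.0%, 16.8% and 9.23% in WT and 38.1%, 40.4% and 66.7% in homozygous libraries. Reads were 8, 19 and 6 in WT and 37, 23 and 58 in homozygous libraries, or 0.316 ± 0.122 and 1.27 ± 0.416 RPM (4.02-fold; SD, n = 3 each). This near start is the one with CArG boxes and a TATA box before it in the sequences above. The distant start's main donor had 38, 74 and 51 reads in WT and 50, 34 and 24 in homozygous libraries, which overlap, and its other donor had 11, 20 and 8 reads in WT and 10, 0 and 5 in homozygous libraries. All these read numbers are small. In Flp-In cells an 85-nt exon at chr10:88941784-88941868 was skipped in 1, 0 and 1 reads in WT and 6, 7 and 2 in D262V libraries and was not counted as changed.

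**Figure D4:**
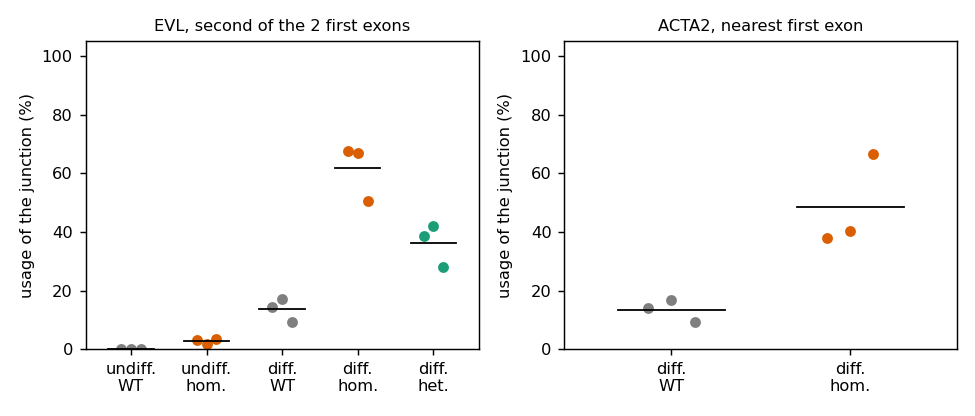
Usage in percent (y axis) of the second EVL first exon and of the nearest ACTA2 first exon by group of SH-SY5Y cells (x axis; undiff. is undifferentiated, diff. differentiated, hom. homozygous and het. heterozygous D262V); points are libraries and bars are means of 3. EVL is at 0 to 3.61% in undifferentiated cells and at 50.6% to 67.6% in differentiated homozygous cells, and the homozygous ACTA2 libraries range from 38.1% to 66.7%.

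ADD3 (chromosome 10, plus strand) differed at a cassette exon of 96 nt, a multiple of 3, at chr10:110132304-110132399. The skipping junction chr10:110130486-110133324, read at its acceptor, had a usage of 5.41%, 8.05% and 6.83% in differentiated WT and 24.4%, 28.9% and 26.7% in heterozygous libraries. Skipping reads were 78, 181 and 112 in WT and 643, 593 and 658 in heterozygous libraries, 7.11-fold higher in RPM. In Flp-In cells the same junction had 41.2%, 43.9% and 35.9% in WT and 21.4%, 23.5% and 23.1% in D262V libraries. The exon was thus skipped more in heterozygous SH-SY5Y cells and less in D262V Flp-In cells than in the WT cells of the same line, with no overlap in either. This exon was not listed in the homozygous table, where 0 of 26 readable ADD3 junctions were counted as changed. A second ADD3 exon of 152 nt, chr10:110116258-110116409, was skipped at 13.3%, 13.3% and 11.8% in WT and 3.92%, 3.13% and 5.19% in heterozygous libraries, a difference of less than 10 points with the groups apart.

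RAI14 (chromosome 5, plus strand) had a cassette exon of 87 nt, also a multiple of 3, at chr5:34813573-34813659. Its skipping junction chr5:34812208-34814581, read at its acceptor, had a usage of 0%, 2.99% and 2.82% in differentiated WT libraries. Homozygous libraries had 48.8%, 17.0% and 28.1%, and heterozygous libraries 26.4%, 48.6% and 39.7%. All D262V libraries lay above WT, with a wide spread, on 0, 2 and 2 skipping reads in WT, 20, 9 and 23 in homozygous and 33, 18 and 52 in heterozygous libraries. In Flp-In cells skipping was 22.9%, 20.3% and 13.9% in WT and 5.43%, 4.87% and 6.49% in D262V libraries, from 102, 89 and 59 and from 26, 22 and 32 reads. The RAI14 difference in Flp-In cells, 13.4 points, was the smallest of those counted as changed. RAI14 therefore had the same pair of opposite directions as ADD3, and the difference between the lines was not tested.

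**Figure D5:**
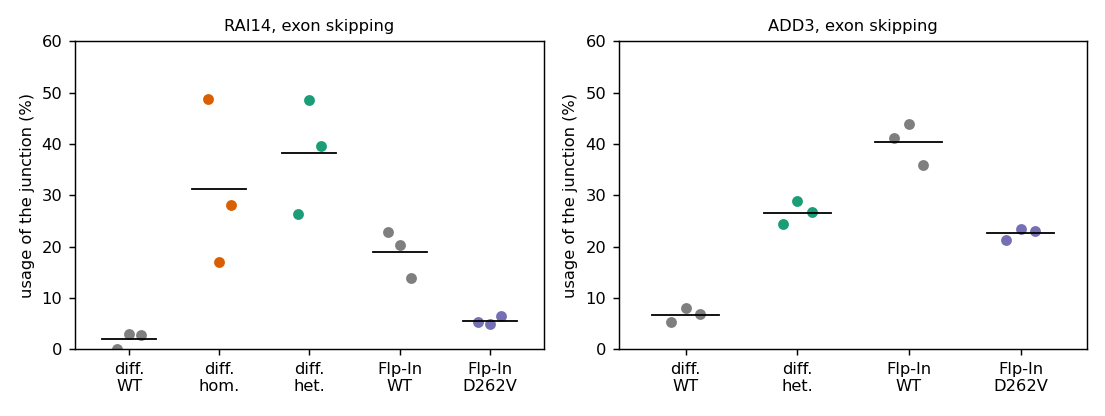
Usage in percent (y axis) of the exon-skipping junctions of RAI14 and ADD3 in differentiated SH-SY5Y cells (diff.; hom. is homozygous and het. heterozygous D262V) and in Flp-In cells (x axis); points are libraries and bars are means of 3. D262V libraries lie above WT in SH-SY5Y cells and below WT in Flp-In cells, with ADD3 at 24.4% to 28.9% in heterozygous and 21.4% to 23.5% in D262V Flp-In libraries.

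Gene levels were taken from the sum of reads over a gene's listed junctions, scaled by TMM, which weights a gene by the junctions its table lists. TPM1 was at 68.0 ± 3.43 CPM in WT and 112 ± 3.62 in homozygous cells, and at 55.7 ± 2.67 and 145 ± 10.1 in the heterozygous table (SD, n = 3 each), a log2 fold of 0.72 (SE 0.09) and 1.38 (SE 0.12). TPM2 was at 281 ± 32.4 CPM in WT and 150 ± 12.5 in homozygous cells (SD, n = 3 each; log2 fold -0.91, SE 0.09), and its heterozygous log2 fold was -0.04 (SE 0.13). EVL had a log2 fold of 1.21 (SE 0.24) in homozygous and 1.31 (SE 0.24) in heterozygous cells. In the homozygous table the only listed EVL junctions were the 2 of its start choice, and the only ACTA2 junctions the 3 of its own. Their sums there thus count the start junctions described above again and are not levels of the whole gene. In the heterozygous table EVL had 3 listed junctions, which include the same 2. The tropomyosin TPM3 lay slightly lower in both (-0.21, SE 0.08, and -0.23, SE 0.10) and TPM4 near its WT level (0.03, SE 0.10, and 0.19, SE 0.13). ADD3 had 0.38 (SE 0.08) and 0.25 (SE 0.12), RAI14 0.07 (SE 0.25) and 0.86 (SE 0.36), and ACTA2 0.09 (SE 0.29) in homozygous cells. In undifferentiated homozygous cells TPM1 had 0.67 (SE 0.18), while EVL and TPM3 had -0.07 (SE 0.17) and -0.14 (SE 0.17). Flp-In values were 0.57 (SE 0.12) for ADD3, 0.35 (SE 0.15) for EVL, 0.21 (SE 0.10) for RAI14, -0.07 (SE 0.09) for TPM3 and -0.47 (SE 0.19) for ACTA2. Gene counts gave other values for EVL in differentiated cells, -0.215 (SE 0.38) in homozygous and 0.35 (SE 0.37) in heterozygous cells. For RAI14 they gave 0.92 (SE 0.82) and 2.86 (SE 0.79). These RAI14 values rest on a mean of 4 counts in WT, 7 in homozygous and 22.7 in heterozygous libraries.

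Homozygous and heterozygous differentiated cells were also compared directly, on the junctions listed in both tables. This comparison was chosen after the data were seen and sums the junction reads from which the 8 genes were chosen, so their values in it are a description without a test. Of 3009 genes in this comparison 34.3% passed edgeR's quasi-likelihood test after Benjamini-Hochberg adjustment. TPM1 was 1.49-fold lower in homozygous than in heterozygous cells (log2 fold -0.57, SE 0.11). TPM2 was 1.84-fold lower (log2 fold -0.88, SE 0.11). TPM3 (0.01, SE 0.09) lay near 0. EVL, summed over the 2 junctions of its start choice, had 0.06 (SE 0.23) but -0.67 by its most-read junction alone. RAI14 had a log2 fold of -0.81 (SE 0.33), which was -1.18 without the second heterozygous library and -0.50 without the third. ADD3 had 0.18 (SE 0.11), which was 0.31 without the third heterozygous library, 0.10 without the second and 0.43 by its most-read junction alone. The deposited gene counts come from the same libraries, so their values for the 8 genes are likewise a description without a test. They gave the same sign for TPM1 (-0.50, SE 0.39) and TPM2 (-0.42, SE 0.33), with larger SEs than by junction reads. RAI14 had -1.94 (SE 0.74) on few counts. ADD3 had 0.33 (SE 0.16), which was 0.48 without the third heterozygous library. Of 16833 genes 15.9% passed by edgeR on gene counts. Between these 2 groups 9 of 12 neuronal markers were higher in homozygous cells and 2 of 5 tested smooth muscle markers lower, by gene counts, and their part in the TPM1 and TPM2 differences was not tested.

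Differentiated and undifferentiated WT cells were compared over 1469 genes with junctions listed in both tables, of which 65.9% passed. This comparison also sums the junction reads from which the 8 genes were chosen, so their values in it are a description without a test. EVL, summed over the 2 junctions of its start choice, was 8.18-fold lower in differentiated cells (log2 fold -3.03, SE 0.33). TPM3 was 3.54-fold higher (log2 fold 1.82, SE 0.16). TPM1 was 1.31-fold lower (log2 fold -0.39, SE 0.13). Its log2 fold was -0.54 without the first undifferentiated WT library, -0.29 without the second and -0.34 without the second differentiated one. By its most-read junction alone the TPM1 log2 fold was -1.25. The other 5 genes had no junction in both tables. Differentiation and the separate processing of the 2 tables cannot be told apart here.

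Of 80 other genes of the actin cytoskeleton, 38 had enough junction reads in the homozygous comparison, of which 9 rose and 8 fell at an adjusted p under 0.05 by edgeR, or 44.7% against 32.7% of all genes, with a median log2 fold of 0.06. In the heterozygous comparison 7 rose and 7 fell of 47, or 29.8% against 24.7%, with a median of 0.02. In Flp-In cells 1 rose and 3 fell of 26 (background 16.6%), and in undifferentiated cells 4 rose and 1 fell of 38 (background 11.1%). By junction reads the list thus had nearly balanced directions in differentiated cells. Gene counts of the same list gave 1 rise (ADD2) and 1 fall (GSN) of 73 in homozygous cells, or 2.74% against 6.08% of all genes. CALD1, SVIL and TMSB4X, named below, thus did not pass there. In heterozygous cells gene counts gave 11 rises and 7 falls of 73, or 24.7% against 16.4%. The fold values that follow are from junction reads. CALD1 (caldesmon, which binds actin together with tropomyosin) was 1.87-fold higher in homozygous cells (adjusted p = 7.95e-10) and 3.57-fold higher in heterozygous cells (adjusted p = 4.7e-07), and 1.49-fold lower in D262V Flp-In cells (adjusted p = 0.0173). SVIL (supervillin, an actin- and membrane-binding protein) was 2.02-fold and 3.75-fold higher in homozygous and heterozygous cells (adjusted p = 2.15e-09 and 1.37e-07). Both were lower in homozygous than in heterozygous cells, CALD1 by 2.57-fold (adjusted p = 1.22e-06) and SVIL by 1.89-fold (adjusted p = 5.13e-05), the order also seen for TPM1. Among falls, TMSB4X (thymosin beta 4, which holds actin monomers) was 1.81-fold lower in homozygous cells (adjusted p = 6.94e-10) and FSCN1 (fascin, a filament bundler) 3.27-fold lower in heterozygous cells (adjusted p = 0.000729). CALD1 also belongs to the smooth muscle list above.

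The irCLIP lists hold 519183 clusters for Flp-In WT, 483849 for Flp-In D262V, 583264 for SH-SY5Y WT and 539011 for SH-SY5Y D262V cells, each from 3 pooled samples, so there is no replicate error. Scores are the authors' values, and the zygosity and differentiation state of the SH-SY5Y cells are not given in the labels. Of these clusters 592, 562, 397 and 378 named 1 of the 8 genes, all on the gene's strand. EVL had 201 and 175 clusters in SH-SY5Y WT and D262V lists, ADD3 123 and 129, TPM3 32 and 29, TPM4 23 and 23, and TPM1 18 and 22. TPM2, RAI14 and ACTA2 had 0 in both SH-SY5Y lists, while RAI14 had 191 and 186 and TPM2 6 and 6 in the Flp-In lists. The highest TPM1 cluster lay in the same intronic stretch in all 4 lists, between the last common exon and the last exons it chooses among. In Flp-In WT it was chr15:63063158-63063356 with a score of 793, higher than 99.4% of that list. The SH-SY5Y WT list had chr15:63063050-63063248 with a score of 568 (above 97.3%) and the SH-SY5Y D262V list chr15:63063114-63063312 with 439 (above 96.1%). No cluster lay at the TPM1 76-nt pair in any list, and 1 cluster lay at the TPM3 pair in each. A cluster overlapped the 96-nt ADD3 cassette exon in all 4 lists, with scores of 97 in Flp-In WT and 45 in SH-SY5Y WT, where the list medians were 46 and 55. The 87-nt RAI14 exon was covered by a cluster in both Flp-In lists, with scores of 37 and 29, both under the medians of 46 and 44. The EVL start choice spanned 148 and 137 clusters in the SH-SY5Y lists, most of the gene's total. Cluster counts follow the depth and length of each RNA, and nothing about a change in binding is read from them.

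Over the 15 SH-SY5Y libraries, the genes whose junction read levels followed TPM1 most closely were RFWD2 (Pearson r = 0.894) and MARCH11 (r = 0.891), of 858 genes with at least 20 reads in every library. For TPM3 they were PSMA4 (r = 0.988) and ALKBH6 (r = 0.982), and for EVL LOC101928509 (r = 0.960) and MARC1 (r = 0.959). These libraries share differentiation state and table, which move many genes together, and no p is given. The other 5 genes were not in that set.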

How the data were processed

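The genes and lists were chosen with earlier results of these data known. Libraries were made from poly(A) RNA with a directional NEBNext Ultra kit, per the labels' protocols. Tools in the submitters' processing notes are STAR 2.5.3a, HTSeq, DESeq2 and Cufflinks, with build hg38. Whether reads were counted by strand, and on which annotation, the sources used here do not say. The authors deposited whole-number read counts per gene in 3 tables, and JUM-type splicing tables with read counts per junction, usage in percent and a p-value with its adjusted p-value. The deposited irCLIP lists give a score per cluster, of unknown unit. Junction coordinates are the first and last base of the intron. Reads assigned to no gene did not enter library sizes.

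Usage was recomputed from the deposited counts: 100% of 1176105 values lay within 0.05 points, and 684 entries without usage were left out. Rows naming a gene were taken by symbol. For gene levels, junction reads were summed per gene and tested with edgeR 4.0.16 (R 4.3.3), using TMM, filterByExpr, a quasi-likelihood fit and Benjamini-Hochberg adjustment at 0.05; differentiated WT, homozygous and heterozygous libraries shared 1 fit for gene counts. Named genes are the 8 genes and, per comparison, the list genes with the largest changes past the threshold, of which a part is printed. On simulated junction reads the test recovered 95% of 200 genes changed 2-fold in the homozygous comparison (5395 genes) and 98.5% in the WT comparison (1469 genes). Of the calls 5% and 6.19% were false. The simulation gave every gene the same dispersion, 0.02. In the data more genes were called changed (1759 and 968) and replicate noise was uneven, so these rates need not hold there. DESeq2 1.42.0, RLE scaling, no filter, single junctions, other usage limits, a replicate block and leaving out each library were alternatives. Same-numbered libraries were not paired: their deviations correlated at -0.076 to 0.302 over 27 pairs, and 1 pair was above 0.1. That pair was the third WT and the third heterozygous differentiated library, by junction reads. Within each group, replicates varied beyond sampling noise.

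Gene counts placed 3.62 to 6.85 M reads in genes per undifferentiated library, of 87.3 to 159 M in all. For differentiated libraries these were 8.72 to 15.3 of 131 to 214 M, and for Flp-In libraries 1.99 to 2.91 of 35.3 to 49.1 M. Junctions with few reads have a coarse usage value, and read numbers are given beside them. Sequences are from RefSeq (GRCh38.p14); exon sequences were not used here.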

Additional observations from a re-analysis of the deposited data

Results flagged for a closer look

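ADD3 and RAI14 went in opposite directions in the 2 cell lines. Skipping of the 96-nt ADD3 exon differed by 19.89 points between heterozygous D262V and WT differentiated SH-SY5Y cells and by -17.69 points between D262V and WT Flp-In cells, with every D262V library above WT in the first line and below WT in the second. Skipping of the 87-nt RAI14 exon, read at the acceptor, differed by 36.31 points in heterozygous and 29.33 points in homozygous SH-SY5Y cells. In Flp-In cells it differed by -13.42 points, again with every library on its side. The size depended on the side read. At the donor, usage of the junction into the exon differed by -33.68 points in heterozygous, -18.94 in homozygous and 13.57 in Flp-In cells. The difference between the lines was not tested for either gene. WT skipping itself differed between the lines, at 5.41% to 8.05% in SH-SY5Y and 35.9% to 43.9% in Flp-In cells for ADD3, and at 0% to 2.99% and 13.9% to 22.9% for RAI14. The lines also differ in how D262V is expressed, from the cells' own gene or from a transgene, and line and mode of expression cannot be told apart.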

How the results depend on the processing

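The numbers of the 8 genes' junctions counted as changed were 0 to 0 (undifferentiated), 10 to 10 (homozygous), 20 to 20 (heterozygous) and 5 to 5 (Flp-In) when each library was left out, with the authors' adjusted p kept. Leaving out a library can only loosen the conditions on overlap and reads, so a junction could be lost only through its mean shift. These equal counts therefore say little about stability. Without composite events the heterozygous count was 10, and with a limit of 20 points the Flp-In count was 0. With scores at or above the list median, irCLIP clusters naming a gene numbered 386 in Flp-In WT, 328 in Flp-In D262V, 211 in SH-SY5Y WT and 185 in SH-SY5Y D262V. Counts of changed genes over all genes, for which each fit was run anew, varied more. By gene counts, undifferentiated cells had 415 changed genes, 817 with DESeq2, 816 with no filter and 98 to 428 when a library was left out. Homozygous cells had 1024, and 1832 with only the 2 groups fitted, and 575 to 783 in the leave-outs. The leave-outs gave 209 to 714 (main 534) in Flp-In cells and 1772 to 3041 (main 2674) between homozygous and heterozygous cells. By junction reads they gave 305 to 653 (main 532) in undifferentiated and 917 to 2050 (main 1619) in heterozygous cells. With the replicate block, gene counts gave 237 changed genes in undifferentiated cells, and the other counts stayed within 1.5 times. By junction reads the block gave 1684 against 1759 in homozygous cells and 2229 against 1619 in heterozygous cells. The cause of these moves was not tested. FMNL2, of the actin list, had a log2 fold of -1.03 between WT states and 0.76 by its most-read junction alone. The comparison of homozygous with heterozygous cells by junction reads was added after the data were seen. Usage on few reads (RAI14, ACTA2, EVL in WT) is limited by depth.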
